A study of Mus musculus with 6 samples.

Results

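Integrins are the transmembrane receptors through which cells hold the extracellular matrix, and 36 of the 21627 genes in the table belonged to the integrin subunits and their cytoplasmic adaptors. Members were taken by symbol: 24 genes named Itga plus a number or letter or Itgb plus a number from 1 to 8, and 12 adaptors. Itga6 and Itgb4, the hemidesmosome pair, were left out. The 24 subunits were divided by their known sites of expression into 15 epithelial and stromal genes and 9 leukocyte and platelet genes. The rule used symbols and no measured value, but it was set with earlier results of these data known.

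RNA was sequenced from mammary organoids of 2 groups. Ezh2 knockout (KO) organoids came from MIC mice with conditional Ezh2 alleles, and wild-type (WT) organoids from MIC mice with intact Ezh2. All 6 libraries (3 per group) came from female FVB/N animals of 8 to 12 weeks and had been kept for 8 days in doxycycline at 2 µg/ml. In the MIC line this drug turns on the polyomavirus middle T oncogene and, where the alleles are conditional, removes Ezh2, so the oncogene was induced in KO and WT alike. About 10000 cells were plated and formed acini over 6 days before the drug was given. The sources used here do not name the promoters of the transgenes, nor whether a replicate was a mouse or a culture of its own. The tests therefore measure spread among these 6 libraries, which may be technical.

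Each integrin is a pair of 1 alpha and 1 beta subunit, and the pairing sets the ligand: collagen, laminin, fibronectin, latent TGF-beta or, on leukocytes, cell surface proteins. Talins and kindlins bind the tail of the beta subunit and switch the receptor on. Vinculin, paxillin, focal adhesion kinase and the complex of ILK, PINCH and parvin then tie it to actin and to signalling. In the mammary gland, integrins of basal and luminal cells hold the epithelium to its basement membrane.

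The KO libraries held 27667054 to 29203634 counts and the WT libraries 18292722 to 23437024. Ezh2, as TMM-scaled CPM, spanned 5.84 to 7.28 among the KO libraries, against 14.7 to 22.6 for WT (two-sided exact permutation test, p = 0.1, the smallest that 20 arrangements allow). The epithelial markers Epcam, Cdh1, Krt8, Krt18, Krt5 and Krt14 summed to 4212 to 4252 CPM in KO and 4332 to 4681 CPM in WT libraries. Libraries were less alike in other cell types. The 6 fibroblast markers summed to 6645 to 7738 CPM in KO libraries, and to 1957, 7264 and 10050 CPM in WT replicates 1 to 3. The 9 measured myeloid markers summed to 467 to 585 CPM in KO libraries, and to 454, 1939 and 723 CPM in the WT replicates. Cd14 made up most of the sum in every KO library and in WT replicate 1, at 315 to 384 CPM in KO libraries and 320, 442 and 302 CPM in the WT replicates, and Lyz2 most of it in WT replicate 2.

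Of the 36 genes, 33 passed the filter on low counts, and Ilk, Itgad and Itgal did not. The edgeR quasi-likelihood test called 0 of the 33 at an adjusted p of 0.05, as it called 0 of all 14196 genes. At an unadjusted p under 0.05 it held 9 members, 7 higher and 2 lower, against 19.8% of all genes (8.93% higher and 10.9% lower). In 12 members KO was fully separated from WT, 9 above and 3 below, against 28.8% of all genes (14.2% and 14.6%). DESeq2 called 6 members: Itga8, Itgb8, Itga1, Parva and Tln2 higher and Itgam lower in KO organoids. Across the whole table DESeq2's calls came to 7.37% of genes, 3.97% higher and 3.4% lower. The median log2 fold change of KO over WT was 0.08 over the 33 members and −0.05 over all genes tested, and by role it was 0.20 over 15 epithelial and stromal subunits, 0.10 over 11 adaptors and −1.08 over 7 leukocyte and platelet subunits (−0.64 without WT replicate 2).

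Promoter sequence is shown for the called members with an entry in the RefSeq table of build GRCm38.p6, which held 26 of the 36 members and 4 of the 6 called ones. Each window runs from 250 bases before to 50 after the start and is given 5′ to 3′ on the gene's own strand. For the integrins higher in KO organoids, capitals mark CG dinucleotides, the base pair step that CpG islands hold in excess. Itga8 (chr2:12301895-12302194, minus strand) held 23 of them, more than 78.5% of the 32851 promoters in the table. Itgb8 (chr12:119238227-119238526, minus strand) held 13, more than 62.1% of promoters. Itga1 (chr13:115101915-115102214, minus strand) held 12, more than 60.4%, and the median over all promoters was 7. The deposited coordinates put the 5′ end of Itgb8 at 119238802. Its window, placed by the RefSeq start, lies inside those coordinates and does not hold that end.
Itga8: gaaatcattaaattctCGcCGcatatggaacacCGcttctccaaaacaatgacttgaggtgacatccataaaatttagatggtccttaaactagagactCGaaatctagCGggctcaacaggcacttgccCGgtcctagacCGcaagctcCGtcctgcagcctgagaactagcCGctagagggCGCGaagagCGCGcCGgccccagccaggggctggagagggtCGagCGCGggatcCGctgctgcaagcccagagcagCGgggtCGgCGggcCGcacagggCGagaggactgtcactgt
Itgb8: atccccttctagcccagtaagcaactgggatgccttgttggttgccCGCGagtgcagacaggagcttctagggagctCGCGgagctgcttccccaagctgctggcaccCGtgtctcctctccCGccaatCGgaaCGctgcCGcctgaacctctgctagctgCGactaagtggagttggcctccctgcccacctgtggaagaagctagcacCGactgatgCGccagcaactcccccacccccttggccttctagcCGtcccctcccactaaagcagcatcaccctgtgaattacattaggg
Itga1: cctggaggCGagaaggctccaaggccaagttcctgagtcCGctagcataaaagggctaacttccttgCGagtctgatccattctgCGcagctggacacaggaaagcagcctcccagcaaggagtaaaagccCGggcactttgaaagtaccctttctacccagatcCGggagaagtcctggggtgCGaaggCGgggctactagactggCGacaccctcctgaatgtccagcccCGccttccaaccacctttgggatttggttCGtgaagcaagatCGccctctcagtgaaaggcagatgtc

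Itgam (chr7:128062390-128062689, plus strand) was the called member that was lower, and it held 6 CG dinucleotides. Capitals mark the core letters GAGGAA, on either strand, of the motif of PU.1, a transcription factor of myeloid cells known to bind the human ITGAM promoter. Itgam held 3 matches, and 28.3% of all promoters in the table held at least 1. Itga8, Itgb8 and Itga1 held 0 matches to these letters, and also 0 to the GC box GGGCGG (1 in Itgam, and in 35.7% of all promoters), to TATAAA (0 in Itgam, 13.6%) and to the AP-1 letters TGANTCA (0 in Itgam, 7.81%), on either strand.
Itgam: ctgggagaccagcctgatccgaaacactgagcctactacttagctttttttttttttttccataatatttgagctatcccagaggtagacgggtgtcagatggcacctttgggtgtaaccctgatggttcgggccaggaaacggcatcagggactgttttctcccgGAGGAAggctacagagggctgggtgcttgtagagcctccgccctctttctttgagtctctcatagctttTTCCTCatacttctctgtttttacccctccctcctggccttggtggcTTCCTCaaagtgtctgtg

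Levels were compared between genes as FPKM, which is per kilobase of gene length. Itgb1, the partner of most alpha subunits, was the most abundant member at 337 ± 12.8 FPKM in KO and 309 ± 26.9 FPKM in WT organoids (SD, n = 3 per group, as for all means that follow). Itgb5, a partner of the alpha v subunit, followed at 151 ± 10.6 and 113 ± 33.6 FPKM. Among the alpha subunits that were members, Itga3, a laminin receptor chain of epithelium, led at 92.7 ± 5.13 FPKM in KO and 80.8 ± 18.6 FPKM in WT. The fibronectin receptor chain Itga5 came next at 63.1 ± 9.62 and 62.7 ± 14.2 FPKM. The adaptors with the highest levels were Tln1 (talin 1), Parva (alpha parvin) and Pxn (paxillin). The leukocyte and platelet subunits were low: Itgb2, the shared beta chain of leukocyte integrins, was the highest of them at 3.23 ± 0.83 FPKM in KO and 6.91 ± 5.26 FPKM in WT organoids, and Itgal, the alpha chain of LFA-1, was lowest at 0.018 ± 0.014 and 0.057 ± 0.043 FPKM.

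**Figure D1:**
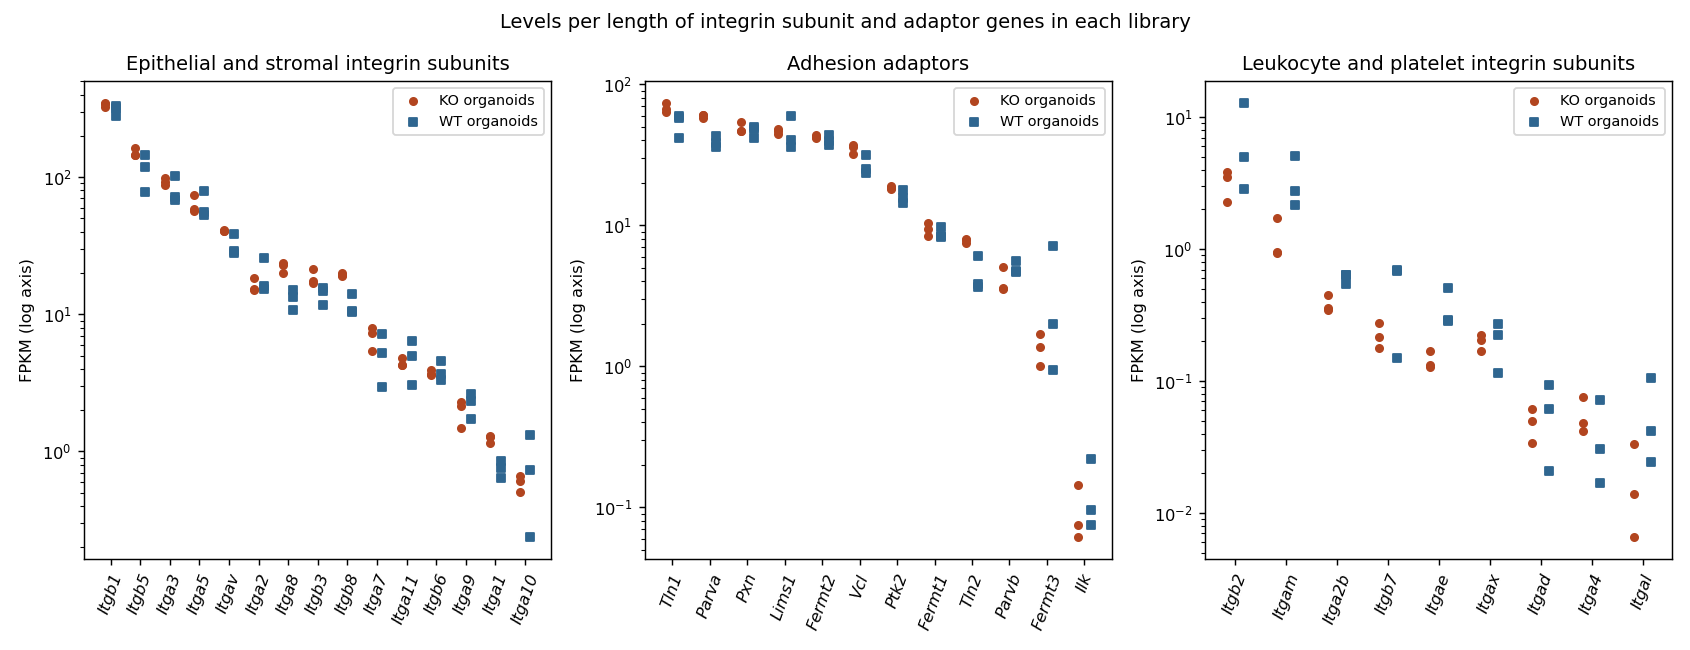
FPKM on a log axis for each of the 36 genes, ordered by mean level within its role, with 1 point per KO library (circles) and per WT library (squares). The KO points of Itga8, Itgb8, Itga1, Parva and Tln2 lie above all WT points of the same gene, those of Itgam lie below, and Itgb2 and Fermt3 have 1 WT library well above the rest.

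Itga8 pairs with beta 1 in a receptor for nephronectin and other ligands with the RGD sequence. Its CPM was 136, 133 and 118 in KO replicates 1 to 3, against 63.1, 84.3 and 79.3 in the WT replicates. Every KO library lay above every WT library. The edgeR log2 fold change was 0.77 ± 0.13 (SE), with an adjusted p of 0.0833 in edgeR (0.0367 to 0.407 over 16 edgeR and limma alternatives) and 0.000123 in DESeq2. In bulk RNA more cells of a type and more RNA per cell cannot be told apart. Itga8 passed edgeR's test with no filter on low counts (0.0367) and without WT replicate 2 (0.0455). It shares 5.05% of its exon bases with an antisense gene, E030013I19Rik, which had 91 to 161 counts in KO and 15 to 98 in WT libraries, against 3210 to 3923 and 1417 to 1748 counts of Itga8.

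Itgb8 pairs with alpha v alone, in a receptor known for activating latent TGF-beta. Its CPM was 162, 168 and 164 in KO libraries, against 88.1, 85.9 and 121 in WT libraries. The KO libraries lay close together and above the WT libraries, of which replicate 3 was nearest. The edgeR log2 fold change was 0.74 ± 0.15 (SE), with an adjusted p of 0.0878 in edgeR (0.0463 to 0.407 over 16 alternatives) and 0.000840 in DESeq2. Itgb8 also passed edgeR's test with no filter on low counts (0.0463). Itga8 and Itgb8 kept DESeq2's call in all 8 repeats of that test, in which each library was left out in turn or each library's trend on gene length, or on length and GC content, was removed.

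Itga1, the alpha chain of a collagen receptor with beta 1, was a low gene, with 7.58, 6.87 and 7.90 CPM in KO libraries against 3.89, 4.39 and 5.20 in WT libraries. Again no WT library reached the KO libraries. The log2 fold change was 0.73 ± 0.20 (SE), at an adjusted p of 0.133 in edgeR (0.102 to 0.437 over 16 alternatives) and 0.0223 in DESeq2. The DESeq2 call was lost without KO replicate 1, 2 or 3 (adjusted p 0.199, 0.108 and 0.252), fits in which DESeq2 called 1.97% to 2.54% of all genes, and with the length trend removed (0.198).

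The alpha v subunit and its partners beta 3 and beta 5 were not called. Itgav, which pairs with several beta subunits, had 282 to 296 CPM in KO and 190 to 277 CPM in WT libraries. Itgb3 had 97.1, 99.9 and 125 CPM in KO libraries against 86.5, 64.9 and 91.7 in WT libraries. For both genes the groups did not overlap, by a narrow margin, and the log2 fold changes were 0.35 ± 0.15 and 0.41 ± 0.16 (SE), with adjusted p of 0.262 and 0.238 in edgeR and 0.203 and 0.182 in DESeq2. Itgb5 had 446, 443 and 512 CPM in KO libraries and 243, 351 and 457 CPM in WT replicates 1 to 3, so WT replicate 3 lay among the KO libraries. The low value in WT replicate 1 went with the lowest sum of fibroblast markers. Of the members called higher, Itga8, Itga1 and Parva also had their lowest WT value there, and Itgb8 and Tln2 had theirs in WT replicate 2. The part of fibroblast content in any of these values was not tested. The log2 fold change of Itgb5 was 0.41 ± 0.22 (SE; adjusted p 0.344 in edgeR, 0.283 in DESeq2), 0.22 without WT replicate 1 and 0.65 without WT replicate 3. Itgav and Itgb5 passed DESeq2's test when WT replicate 3 was left out (adjusted p 0.000288 and 0.0193), and Itga3 when WT replicate 1 was (0.00721). Without WT replicate 1, 2 and 3 DESeq2 called 13.5%, 11.5% and 9.33% of all genes, against 7.37% with all libraries. Calls gained in these fits, here and below, stand beside those larger shares.

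Itgb1 and the alpha subunits with the highest levels among the members, Itga3 and Itga5, were not called. Itga6 is not a member, and its values are given with the hemidesmosome pair below. Itgb1 had 1229 to 1352 CPM in KO and 1028 to 1294 CPM in WT libraries, with a log2 fold change of 0.12 and a 95% interval of −0.20 to 0.45. Itga3 was at 0.20 (−0.23 to 0.62) and Itga5 at 0.01 (−0.46 to 0.48), and their KO and WT libraries overlapped. Itga2, the alpha chain of the main epithelial collagen receptor, had 63.1 to 77.2 CPM in KO libraries, and 110, 61.9 and 68.8 CPM in WT replicates 1 to 3. Its log2 fold change was −0.22 ± 0.22 (SE), and 0.09 without WT replicate 1, its highest library. Itgb6, an epithelial partner of alpha v, was at −0.05 (−0.42 to 0.33). The remaining subunits Itga7, Itga9, Itga10 and Itga11 had log2 fold changes of −0.34 to 0.42 with overlapping groups. Of the exon bases of Itga10, 33.5% are shared with another annotated gene, Gm42957, which has no count in the deposited table.

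**Figure D2:**
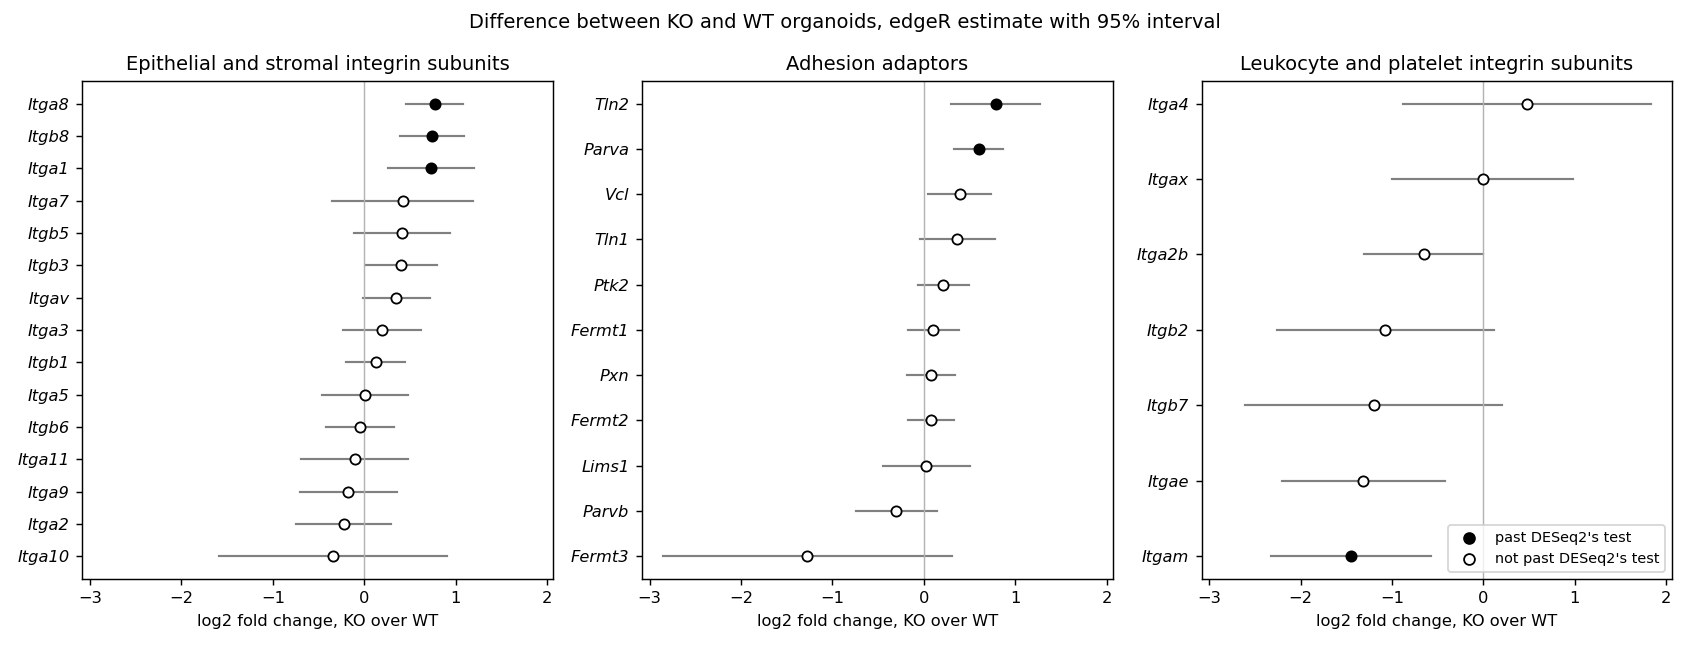
The edgeR log2 fold change of KO over WT with its 95% interval for the 33 genes tested, by role, with genes past DESeq2's test filled in black. Itga8, Itgb8, Itga1, Tln2 and Parva lie above 0 and Itgam below. Of the 7 leukocyte and platelet subunits, 6 have negative estimates with wide intervals, among them Itgax at −0.0076.

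The make-up of the beta subunit pool was described as each gene's share of the FPKM summed over Itgb1 to Itgb8, without Itgb4. Itgb1 took 63.2 ± 0.86% in KO and 67.5 ± 5.69% in WT organoids, and Itgb5 28.3 ± 0.93% and 24.4 ± 5.46%. Itgb8 took 3.78%, 3.80% and 3.43% in KO libraries and 2.42%, 2.43% and 2.73% in WT libraries, with no overlap between the groups. In the alpha pool, counted without Itga6, Itga8 took 9.38%, 9.40% and 7.68% in KO libraries and 4.53%, 7.48% and 5.59% in WT libraries. For Itga8 the groups did not overlap, by a narrow margin between KO replicate 3 and WT replicate 2. The shares of Itga3 (36.8 ± 2.05% in KO and 35.7 ± 6.67% in WT) and Itga5 (25.0 ± 3.12% and 27.8 ± 5.34%) overlapped. These shares restate the FPKM of the same libraries and add no separate test.

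**Figure D3:**
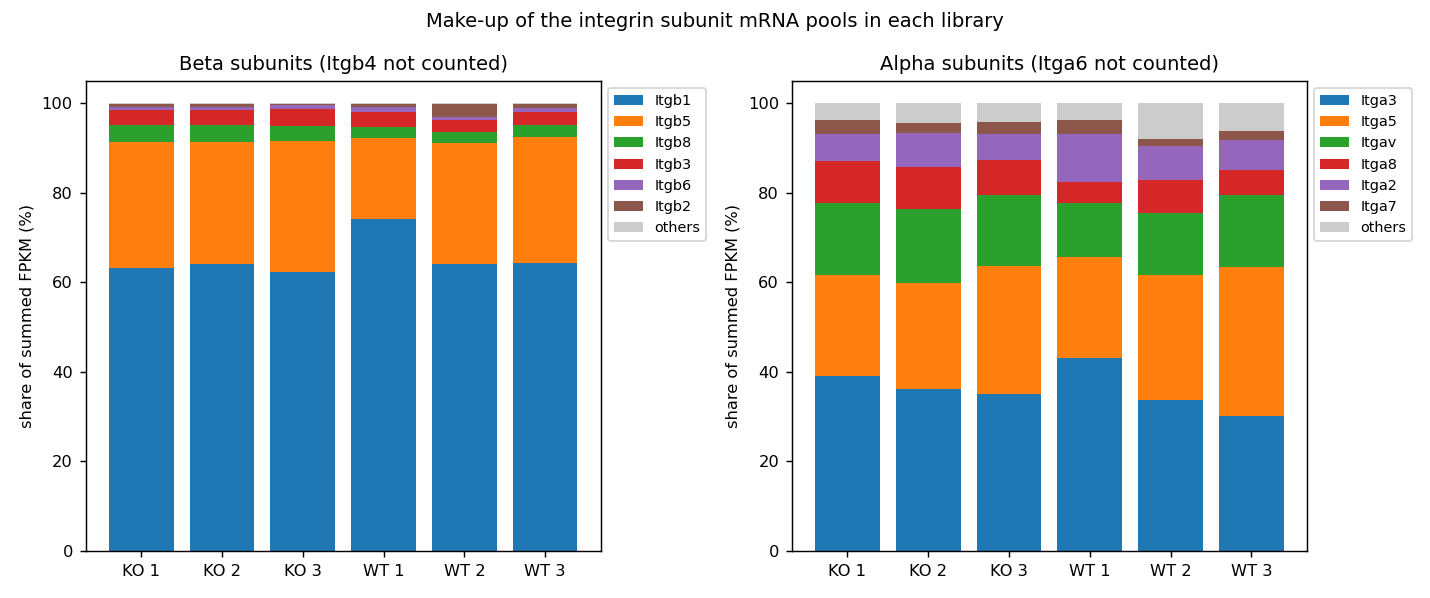
Stacked bars of the share of summed FPKM for the 6 most abundant beta and alpha subunits and the others, with 1 bar per library and KO libraries on the left. Itgb1 fills 62.4% to 64.1% of the beta pool in KO libraries and 64.1% to 74.1% in WT libraries. The Itga8 band is wider in each KO library than in any WT library, by a narrow margin for KO replicate 3 over WT replicate 2.

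Among the adaptors, Parva and Tln2 passed DESeq2's test. Parva, the parvin that links ILK to actin, had 352, 351 and 343 CPM in KO libraries against 213, 218 and 259 in WT libraries. The KO libraries were nearly level, and the WT libraries all lay well below them. The log2 fold change was 0.60 ± 0.11 (SE), with an adjusted p of 0.0867 in edgeR (0.0584 to 0.407 over 16 alternatives) and 0.000134 in DESeq2, a call kept in all 8 repeats of DESeq2. Its paralog Parvb was at −0.30 ± 0.19 (SE; adjusted p 0.416 in edgeR, 0.486 in DESeq2), with overlapping groups.

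Tln2, the second talin, had 95.5, 96.8 and 92.1 CPM in KO libraries against 45.1, 44.8 and 75.02 in WT libraries. All KO libraries lay above the WT libraries, and WT replicate 3 stood apart from the other WT libraries. Its log2 fold change was 0.79 ± 0.21 (SE), or 1.08 without WT replicate 3. The adjusted p was 0.125 in edgeR (0.0798 to 0.436 over 16 alternatives) and 0.0134 in DESeq2. The DESeq2 call was lost without KO replicate 1, 2 or 3 (adjusted p 0.147, 0.139 and 0.117) and with the length trend removed (0.112). Tln1, the more abundant talin with a mean of 574 ± 43.3 CPM in KO libraries against 446 ± 92.3 in WT libraries, was at 0.36 ± 0.17 (SE; adjusted p 0.296 in edgeR, 0.234 in DESeq2), or 0.20 without WT replicate 2. Vcl (vinculin), which binds opened talin, had 188, 166 and 199 CPM in KO libraries against 125, 127.5 and 168 in WT libraries. Its groups overlapped by a small margin at WT replicate 3, and the log2 fold change was 0.39 ± 0.15 (SE; adjusted p 0.214 in edgeR, 0.130 in DESeq2, and 0.00302 in DESeq2 without WT replicate 3). Vcl shares 25.5% of its exon bases with Ap3m1 on the opposite strand, and the library protocol names no step that keeps strand.

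The other adaptors were not called. Ptk2 (focal adhesion kinase) had 80.8 to 83.4 CPM in KO and 61.3 to 79.8 CPM in WT libraries, a log2 fold change of 0.21 ± 0.12 (SE; adjusted p 0.356 in edgeR, 0.385 in DESeq2), with every KO library just above every WT library. Pxn, Lims1 (PINCH1) and the kindlin genes Fermt1 and Fermt2 had log2 fold changes of 0.03 to 0.10, with overlapping groups. Lims1 was highest in WT replicate 1 at 263 CPM, against 192 to 211 CPM in KO and 150 and 179 CPM in the other WT libraries. Ilk, the scaffold of the complex, was listed at 4, 5 and 9 counts in KO and 4, 10 and 4 counts in WT libraries, far below its partners Parva and Lims1. In GENCODE M21, 76.8% of the exon bases of Ilk also lie in exons of Taf10 on the opposite strand, which held 1955 to 2213 counts in KO and 1288 to 2011 counts in WT libraries. The part of this overlap in the Ilk count was not tested, and no level is drawn from the Ilk count.

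Of the 7 leukocyte and platelet subunits tested, 6 had negative log2 fold changes, as did 7872 of all 14196 genes tested. The 6 include Itgax, which was close to no change at −0.0076 ± 0.42 (SE) and at 0.0049 in DESeq2. DESeq2 called Itgam. Itgam, the alpha chain of Mac-1 on macrophages and neutrophils, had 4.49, 8.195 and 4.66 CPM in KO libraries against 10.4, 23.6 and 13.5 in WT libraries. No KO library reached the lowest WT library. The log2 fold change was −1.45 ± 0.37 (SE), with an adjusted p of 0.122 in edgeR (0.0657 to 0.436 over 16 alternatives) and 0.00567 in DESeq2. Without WT replicate 2, the library richest in myeloid markers, it was −1.04 (adjusted p 0.0260 in DESeq2), and DESeq2's call was lost without KO replicate 1 (0.124) or KO replicate 3 (0.107). M21 places another gene, Gm49368, on the same strand over 68.7% of the exon bases of Itgam. Gm49368 has no count in the deposited table, and the annotation used for counting is not named. How reads of the shared bases were counted is therefore not known, and the value of Itgam is uncertain.

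Itgb2, the beta partner of Itgam, did not follow it in every library. Its CPM was 10.4, 11.4 and 6.904 in KO libraries, against 8.64, 36.8 and 15.2 in the WT replicates, so WT replicate 1 lay among the KO libraries. Its log2 fold change was −1.08 ± 0.50 (SE; adjusted p 0.288 in edgeR, 0.168 in DESeq2), and −0.31 without WT replicate 2 (0.00489 in DESeq2 without WT replicate 1). Fermt3, the kindlin of blood cells, had 3.51, 4.39 and 2.64 CPM in KO libraries against 2.46, 17.8 and 5.26 in WT libraries, a log2 fold change of −1.27 ± 0.67 (SE; adjusted p 0.333 in edgeR, 0.221 in DESeq2), and −0.12 without WT replicate 2 (0.00929 in DESeq2 without WT replicate 1). In both genes WT replicate 2 stood far above the other 5 libraries. The macrophage markers had the same high library: Lyz2 had 132.5, 172 and 101 CPM in KO libraries against 78.0, 1277 and 339 in WT libraries. Csf1r had 5.01 to 9.28 CPM in KO libraries, and 5.06, 46.2 and 11.9 in the WT replicates. All 8 myeloid markers that were tested had negative log2 fold changes, with a median of −1.39, and −0.49 without WT replicate 2. The part of these cells in the integrin values was not tested.

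**Figure D4:**
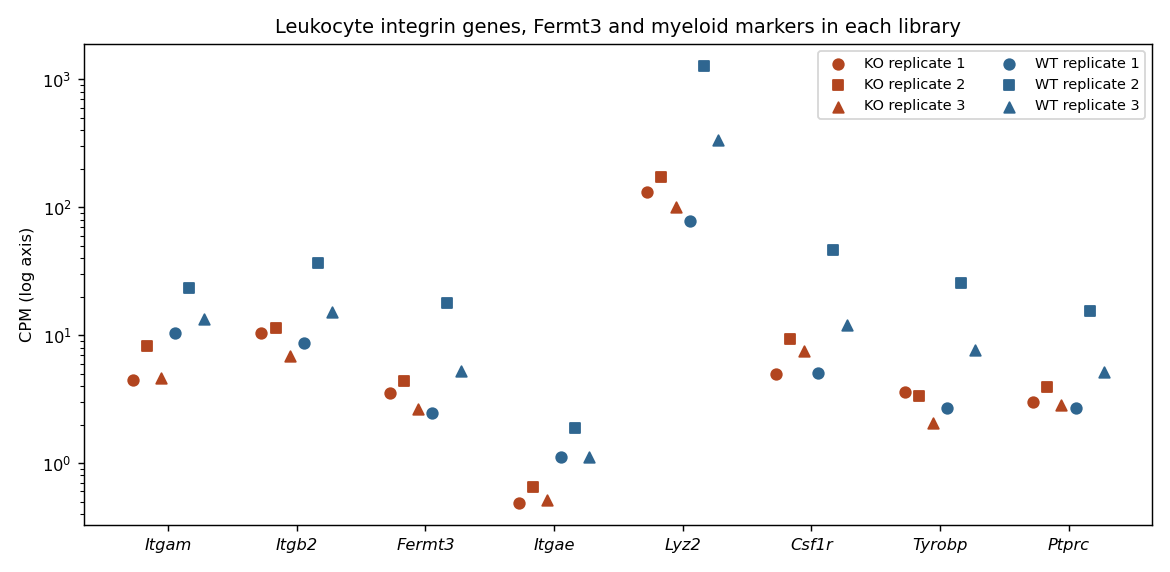
CPM on a log axis of Itgam, Itgb2, Fermt3 and Itgae and of the myeloid markers Lyz2, Csf1r, Tyrobp and Ptprc, with KO libraries in red on the left and WT libraries in blue and a symbol for each replicate number. WT replicate 2 is the highest library for each of the 8 genes, while WT replicate 1 lies above the KO libraries for Itgam and Itgae and within or below their range for the other 6.

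Lymphocyte and platelet subunits were near the limit of detection. Itgae, the alpha chain that binds E-cadherin with beta 7, had 14, 19 and 14 counts in KO and 26, 39 and 20 counts in WT libraries, or 0.49 to 0.65 CPM and 1.12 to 1.88 CPM. Its groups did not overlap, and the log2 fold change was −1.32 ± 0.38 (SE; adjusted p 0.144 in edgeR, 0.101 in DESeq2). Itga2b, the platelet alpha chain, had 34 to 45 counts in KO and 34 to 51 counts in WT libraries, a log2 fold change of −0.65 ± 0.28 (SE; adjusted p 0.253 in edgeR, 0.299 in DESeq2). Scaled to library size its groups did not overlap either. Itgb7 had 14 to 21 counts in KO and 43, 8 and 34 counts in WT libraries, and WT replicate 2, the highest library for the myeloid markers, was its lowest. Its log2 fold change was −1.20 ± 0.60 (SE; adjusted p 0.312 in edgeR, 0.317 in DESeq2, and 0.0188 in DESeq2 without WT replicate 2). Itga4 was at 0.48 ± 0.58 (SE), 1.15 without WT replicate 2 and 0.15 without WT replicate 3, at 3 to 21 counts per library. Itgax was at −0.0076 ± 0.42 (SE), and Itgad and Itgal held at most 11 counts in any library. The T and B cell markers with a value, 5 of 8, summed to 0.28 to 0.75 CPM in KO libraries and to 0.13, 5.07 and 0.45 CPM in the WT replicates. The value of 5.07 CPM was Cd4 alone, a gene that some macrophages also express, and Cd3e, Cd8a and Cd79a were at 0 in every WT library. The 4 platelet markers summed to 2.29 to 3.60 CPM in KO and 2.33 to 10.7 CPM in WT libraries.

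Fold changes in these libraries moved with gene length, and the integrin and adaptor genes are long. Their median length was 4803 bases, against 3092 bases over all genes tested, and when all genes tested were cut by length into 5 bins of like size, 14 of the 33 lay in the longest (4937 bases and more). In that bin, which held all 5 members called higher by DESeq2, the median log2 fold change was 0.20. Of its 2839 genes, 322 passed DESeq2's test higher and 18 lower. In the shortest bin (up to 1743 bases) the median was −0.31, with 17 of 2848 genes higher and 229 lower. With each library's trend on length removed, an alternative chosen after seeing the data, DESeq2 called 3.12% of all genes (1.66% higher and 1.47% lower) and 4 members: Itga8 (log2 fold change 0.61), Itgb8 (0.48) and Parva (0.44) higher, and Itgam (−1.56) lower. Adjusted p was 0.0263, 0.0252, 0.00783 and 0.00340. The median of the epithelial and stromal subunits was 0.10 in the edgeR fit with this trend removed, against 0.20 without the removal.

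**Figure D5:**
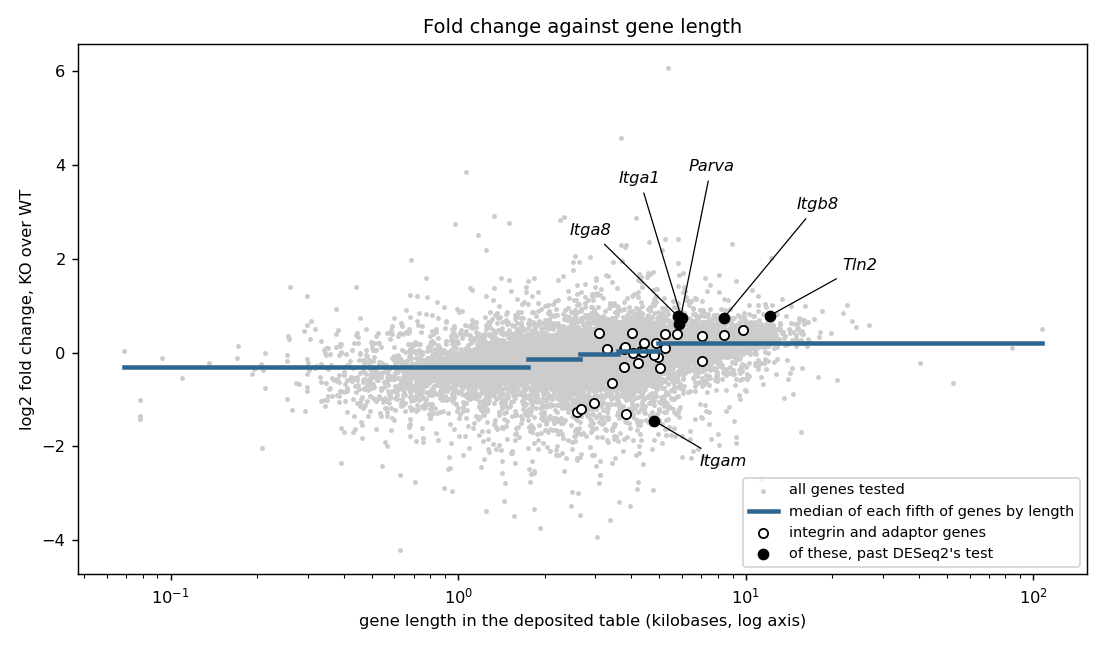
The edgeR log2 fold change of KO over WT against gene length in kilobases on a log axis, for all 14196 genes tested (grey) and the 33 integrin and adaptor genes (circles, black where past DESeq2's test). Blue lines give the median of each of the 5 length bins, −0.31 in the shortest and 0.20 in the longest, and the 5 called genes above 0 all lie in the longest bin.

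Other genes of the pathway were read from lists. Of 33 focal adhesion genes that are not members, 32 were tested and 25 had positive log2 fold changes, against 44.5% of all genes, with a median of 0.14 (−0.05 over all genes). DESeq2 called 3 higher and 1 lower, against 3.97% and 3.4% of all genes, and edgeR 0. Kank1, which binds talin at the rim of adhesions, had 54.4 to 63.7 CPM in KO and 38.7 to 41.6 CPM in WT libraries, a log2 fold change of 0.59 ± 0.10 (SE; adjusted p 0.0838 in edgeR, 0.000361 in DESeq2). Tns4, an epithelial tensin that binds beta 1 tails, was at 0.49 ± 0.10 (SE; 0.0878 in edgeR), and the kinase gene Ptk2b at 0.51 ± 0.14 (0.139). The lower gene was Parvg, the parvin of blood cells, at −1.24 ± 0.39 (0.160). With the length trend removed DESeq2 kept 1 of these calls, Tns4.

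Of 12 ligand genes 11 were tested, and DESeq2 called 1, lower, against 3.4% of all genes called lower, and edgeR 0. A count of 1 in 11 is too small to set the list apart from that share. The gene was Icam1, the ligand of leukocyte integrins, which had 25.1, 26.2 and 25.2 CPM in KO libraries against 44.6, 39.9 and 38.4 in WT libraries, a log2 fold change of −0.68 ± 0.10 (SE; adjusted p 0.0779 in edgeR). Vcam1, a ligand of alpha 4 integrins, was at −1.09 ± 0.48, Tnc (tenascin C) at 0.88 ± 0.47 and Tgfb1, whose latent form alpha v integrins bind, at −0.16 ± 0.11 (SE), and none of the 3 passed either test. Tnc was lowest in WT replicate 1, at 68.8 CPM, against 366 to 401 CPM in KO and 278 and 279 CPM in the other WT libraries. Fn1, the ligand of alpha 5 beta 1, was at 0.20 ± 0.34 and overlapped between groups. The hemidesmosome pair left out of the members was at 0.49 ± 0.10 for Itga6 and 0.39 ± 0.12 for Itgb4 (SE; adjusted p 0.0905 and 0.164 in edgeR, 2.89e-05 and 0.0627 in DESeq2).

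In the authors' deposited table, whose own test is not named in the sources used here, an adjusted p under 0.05 was given to 6.18% of genes with a value and to 6 members. These were Itga8 (0.000229), Parva (0.000657), Itgb8 (0.0014), Itgam (0.00453), Tln2 (0.0141) and Itga1 (0.0277). That table was made from the same libraries and is not independent of the counts tested here.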

How the data were processed

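Poly(A) RNA was fragmented and copied with random hexamers, per the labels' protocols. The submitters' processing notes name CASAVA, STAR and mm10. The sources used here name neither the counting tool nor its annotation. The authors deposited a raw read count per gene and library, an FPKM that equalled count divided by gene length and column total, in the usual scale (largest relative difference 2.13e-07), a mean signal per group (not used here), and their own log2 fold change and p-value columns, quoted as theirs.

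The main test was edgeR 4.0.16 under R 4.3.3 (TMM, minimum count 10 and minimum total 15, robust quasi-likelihood F test, Benjamini-Hochberg adjustment over all 14196 genes tested). DESeq2 1.42.0 was an alternative. Because edgeR called 0 genes, DESeq2's calls are given beside it. FPKM alternatives used limma 3.58.1 on log2(FPKM + 1) and log2(FPKM + 0.1), which understates changes of low genes, for genes with at least 0.5 FPKM in 3 samples. Length trends were removed with mgcv 1.9.3. The fits were also run on counts simulated from the mean levels, library sizes and edgeR dispersions of these data. That simulation held no length trend and no outlying library, so it does not bear on the difference between edgeR and DESeq2 here. With 3 libraries per group, intervals are wide. PCR copies cannot be removed from counts, and the tools named above do not show whether they were removed before counting.

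Overlaps came from GENCODE M21, which matched 98.98% of gene identifiers and 36 of 36 members. Values per library are given for members past the threshold in edgeR or DESeq2 and for up to 6 members of each role with the smallest p, and up to 4 genes of each other list are named; a few further genes were named after their values were seen. Members and lists were chosen with earlier results of these data known.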

Additional observations from a re-analysis of the deposited data

How the results depend on the processing

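Over all genes the edgeR count of 0 at an adjusted p of 0.05 became 1046 in DESeq2, 131 with no filter on low counts, 2 with limma-trend on either FPKM scale, 374 at an adjusted p under 0.10, and 0 to 216 when a library was left out (38 without WT replicate 1, 216 without WT replicate 2). For the members the count of 0 became 6 in DESeq2, 2 with no filter, 3 at an adjusted p under 0.10, and 0 to 1 when a library was left out. DESeq2's count of 6 members ran from 3 to 9 when a library was left out (3 without KO replicate 1 or 3, and 9 without WT replicate 1 or 3), and was 4 with a length, or a length and GC, trend removed. The share of all genes called moved too: it was 1.97%, 2.54% and 2.23% without KO replicate 1, 2 and 3, 13.5%, 11.5% and 9.33% without WT replicate 1, 2 and 3, and 3.12% and 3.42% with the trends removed, against 7.37% with all libraries. The other alternatives gave 0 calls for all genes and for members: RLE and upper-quartile scaling, a filter of 1 CPM in 3 samples, no robust estimation, an adjusted p under 0.01, and both trend removals in edgeR. The member median of 0.08 ran from 0.0097 to 0.16. Ezh2 in KO stood at 32.2% to 39.7% of its WT level.

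The replicate number as a block gave 0 calls among all genes and among members; same-numbered libraries correlated at −0.07, 0.25 and 0.08 in their deviations from the group means, so the numbers were not taken as pairs. KO replicate 3 deviated most like WT replicate 1 (0.246), not WT replicate 3.

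Of 550 values of single members under alternatives, 25 changed sign, in 9 members that were not called. Fermt1 was at −0.024 and −0.020 with the length and the length and GC trend removed. Itga5 was at −0.035 with upper-quartile scaling and −0.049 and −0.087 with those trends removed. Itgax was at 0.0049 in DESeq2, 0.0055 with RLE, 0.018 with no filter and 0.036 with the block. Lims1 was at −0.0078 with upper-quartile scaling and −0.035 with the length trend removed. When a library was left out the range was −0.75 to 0.28 for Itga10, −0.32 to 0.17 for Itga11, −0.38 to 0.085 for Itga2, −0.13 to 0.23 for Itga5, −0.30 to 0.0019 for Itga9, −0.28 to 0.27 for Itgax, −0.16 to 0.11 for Itgb6 and −0.13 to 0.31 for Lims1. The causes were not tested. The low counts of Itgad, Itgal and Ilk limit what can be said of them.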
